A study of Glycine max with 34 samples.

Results

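The probe sets described here are the 200 soybean probe sets that were bright and varied least between the compartments of the early maturation seed. They were taken from 9488 bright probe sets among the 37593 soybean probe sets on the Affymetrix Soybean Genome Array. A probe set was bright when its mean signal over the 32 microdissected arrays was at least 1000. The 2 replicate signals of each of 16 compartments were averaged, and the coefficient of variation (CV, the SD of the 16 averages over their mean) was computed. The 200 lowest were kept, which is 2.1% of the bright probe sets, and the other 9288 bright probe sets serve as their comparison.

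All samples came from seeds of Glycine max cultivar Asgrow A3237, 6.0 to 7.0 mm long, with embryos at early maturation, from plants kept at 22 °C under 16 h light and 8 h dark. The whole seed group was ground in liquid nitrogen and its RNA was taken with Plant RNA Isolation Reagent. The 16 compartments were cut by laser from sections of 8 microns of fixed, paraffin-embedded seeds, and their RNA was taken with the PicoPure kit. They are the axis epidermis, plumule, parenchyma, root meristem, shoot meristem and vascular bundle (6 groups), the cotyledon abaxial and adaxial epidermis, abaxial and adaxial parenchyma and vascular bundle (5 groups), and the seed coat aleurone, hourglass layer, hilum, palisade layer and parenchyma (5 groups). Each of the 17 groups has 2 biological replicates, and from every sample 2 ng of RNA was amplified before labelling. Neither the number of seeds behind a replicate nor any sharing of seeds between compartments is stated in the labels, so the p-values measure only the spread between these samples.

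Most genes that every living cell needs, such as those for protein synthesis and turnover, the cytoskeleton and primary metabolism, are transcribed in all tissues. Genes of this kind are used as internal references when transcripts are compared between tissues, on the assumption that their level stays the same. A seed is a hard case for that assumption, because it joins an embryo that fills with storage protein and oil to a seed coat of maternal cells with other tasks.

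The marker genes followed the division of the labels into embryo and seed coat. Labels within the embryo or within the coat were not checked by markers here. All 6 embryo storage markers had a higher mean over the 11 embryo compartments than over the seed coat. The 2S albumin gene GM2S-1, for example, had 34052 against 648.9 in the coat. The lowest compartment of GY1, GY2 and P34 was in the axis, and that of the other storage markers was in the coat. All 5 seed coat markers were higher in the coat, for example the MADS-box gene AGL1L with a mean of 15507 over the 5 coat compartments against 46.6 over the embryo, which is below the background of the arrays. Every array had been scaled to the same trimmed mean of about 500, so a steady signal means a constant share of an array's total signal and not a constant number of transcripts per cell. The Pearson correlation between the replicates of a group, across probe sets, was lowest in the axis epidermis (r = 0.870).

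The CVs chose the 200 probe sets and are given as a description, with no test. They ran from 9.01% to 18.0% with a median of 16.3%, whereas the other bright probe sets had a median of 43.6% and reached 396%. The highest compartment mean was 1.79 times the lowest in the median steady probe set, with a range of 1.36 to 2.47, and 5.30 times in the median of the other bright probe sets. In 174 of the 200 (87%) the ratio was under 2, which held for 1.36% of the other bright probe sets. In 161 (80.5%) all 16 compartment means lay within 1.5-fold of their own mean, against 2.66% of the others.

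The limit at 200 falls in a continuous distribution. The last probe sets inside it, GmaAffx.55466.1.S1_at, Gma.16782.1.S1_at (LOC100810476) and GmaAffx.59686.1.S1_at, had CVs of 18.00%, 18.00% and 18.03%. The first outside, GmaAffx.92533.1.S1_s_at (LOC100816993), Gma.720.1.S1_at and Gma.5414.1.S1_at, had 18.06%, 18.07% and 18.08%. The dimmest steady probe sets had mean signals of 1019, 1023 and 1110, and the soybean probe sets just under the brightness minimum had 999.95, 999.73 and 999.35. With quantile normalization 126 of the 200 would be chosen again, and 68 with the 11 embryo compartments alone.

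Steady probe sets were found at every brightness. Their mean signals ran from 1019 to 50553 with a median of 4897, and those of the other bright probe sets had a median of 2562. Of the 3608 probe sets with means between 1000 and 2000, 45 were steady (1.25%). The share was 2.41% between 5000 and 10000 (33 of 1367), 8.02% between 20000 and 40000 (26 of 324) and 2.04% at 40000 and above (2 of 98). The share of probe sets with the plain suffix _at, the design for a single transcript, was 79.5% among the steady and 79.6% among the other bright probe sets. The IDs of the 200 probe sets hold 197 different pairs of cluster number and subnumber, and 6 probe sets share both numbers in pairs. Some others share the cluster number alone, for example Gma.10800.1.S1_s_at and Gma.10800.2.S1_at.

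**Figure D1:**
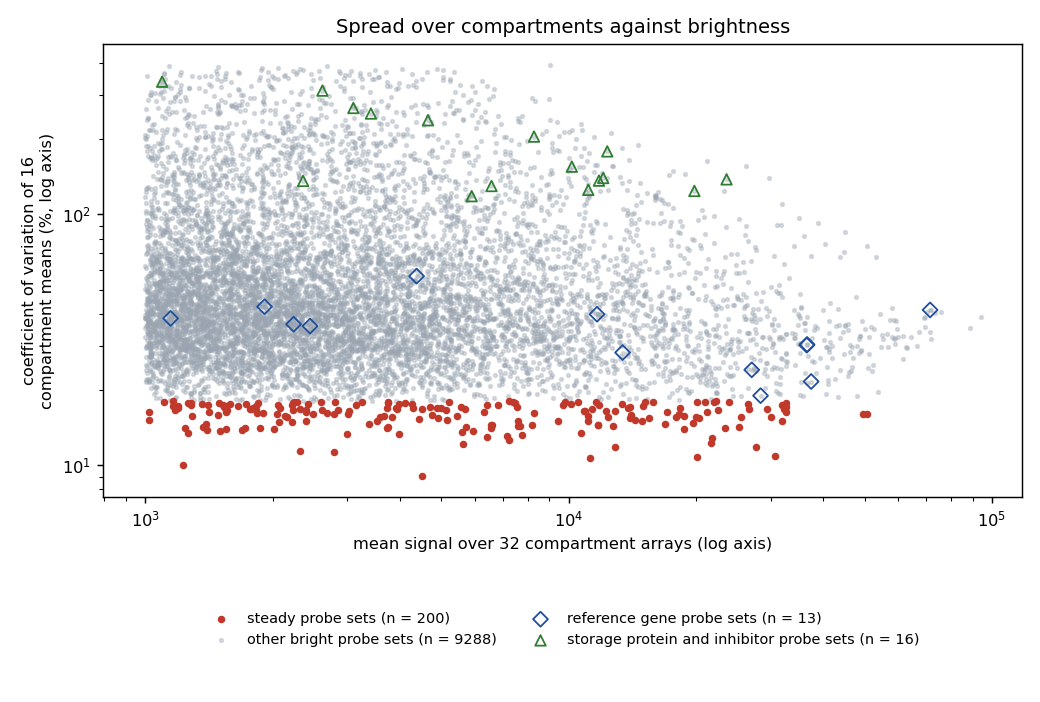
Each point is a bright probe set, with its mean signal over the 32 compartment arrays on the horizontal log axis and the CV of its 16 compartment means, in percent, on the vertical log axis. The 200 steady probe sets lie along the lower edge from 1019 to 50553, all 13 probe sets of reference genes lie above them, and the 16 storage protein and inhibitor probe sets lie at 118% and above.

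The gene table pairs 80 of the 200 with a single gene (40.0%, against 37.3% of the other bright probe sets), which makes 77 different genes, and the other 120 have no gene in it. Of the 80, 71 carry a locus number as symbol and 9 carry a gene name. These 9 encode an aldehyde dehydrogenase (ALDH10A1), a proteasome subunit (PAA1), calmodulins (SCAM-2 and SCAM-3), an actin-depolymerizing factor (ADF1), a profilin (PRO2), a co-chaperone of immune receptors (RAR1-1), an acyl-ACP thioesterase (FAT1) and a seed maturation protein (PM37). In the following, the values of the 32 compartment arrays are given as the lowest, median and highest, and those of whole seed as replicate 1 and replicate 2. The difference is whole seed minus the mean of the 16 compartments on log2(signal + 16), with its standard error, from limma, with p-values adjusted over all 28441 probe sets tested.

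The steadiest probe set of all, Gma.6811.3.S1_at (CV 9.01%), has no gene in the table. It had signals of 3721 and 2809 in whole seed, against 2898, 4490 and 6087 over the compartments. Its compartment means lay between 3959 ± 1500 in the axis epidermis and 5374 ± 122.7 in the cotyledon adaxial epidermis (SD, n = 2 each). That difference is smaller than the SD within the axis epidermis. It was followed by LOC100816152 (CV 10.04%), with 1620 and 1744 in whole seed against 636.6, 1208 and 2084 over the compartments. LOC100305830 came next (CV 10.7%), with 9066 and 10645 in whole seed against 8210, 11382 and 14018. For both loci the whole seed arrays lay inside the range of the compartments.

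PAA1 encodes an alpha subunit of the 20S proteasome, the barrel that degrades proteins tagged with ubiquitin. Its signals were 12319 and 13478 in whole seed, against 5252, 11225 and 16642 over the compartments (CV 15.1%). Both whole seed arrays lay inside that range. The log2 difference of 0.24 ± 0.20 did not pass (limma adjusted p = 0.407). The highest compartment was the aleurone, the outermost layer of the endosperm, which the labels place with the seed coat, at 14152 ± 3521 (SD, n = 2), and the lowest the plumule at 7757 ± 824.

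The cytoskeleton is represented by ADF1, which severs and turns over actin filaments, and PRO2, a profilin that binds actin monomers. ADF1 had 20771 and 18049 in whole seed, against 21095, 32178 and 48683 over the compartments (CV 16.2%). Both whole seed arrays were below every compartment array, and the log2 difference was -0.72 ± 0.15 (limma adjusted p = 0.000625). This difference passed the p threshold but fell short of the size of 1 that a call required. With quantile normalization the log2 difference was -0.23 (adjusted p = 0.222). Without whole seed replicate 2 it was -0.62, about as large, and no longer passed (adjusted p = 0.0622). Of 3 further bright ADF1 probe sets, 1 had a log2 difference of -1.03 ± 0.17 (limma adjusted p = 6.75e-05), and the others had -0.34 ± 0.21 and 0.15 ± 0.15 and did not pass (limma adjusted p = 0.265 and 0.504). PRO2 had 1775 and 2512 in whole seed, against 954.3, 2124 and 2807 over the compartments (CV 16.8%), and its log2 difference was 0.05 ± 0.20 (limma adjusted p = 0.884). A second, brighter PRO2 probe set that was not among the 200 (CV 23.3%) had 14605 and 17067 in whole seed, below all compartment arrays, with a log2 difference of -0.83 ± 0.14 (limma adjusted p = 8.95e-05). The plumule held the lowest PRO2 mean, 1341 ± 546 (SD, n = 2), and its arrays were far apart.

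Calmodulins are calcium sensors that bind and regulate many enzymes. SCAM-2 had 19132 and 20462 in whole seed, against 21249, 28582 and 40224 over the compartments (CV 15.6%). Both whole seed arrays were below all 32 compartment arrays, with a log2 difference of -0.58 ± 0.12 (limma adjusted p = 0.000899). With quantile normalization the difference was -0.03 and did not pass (adjusted p = 0.861). SCAM-3 had 8014 and 8946 in whole seed, against 7184, 10819 and 14456 over the compartments (CV 17.8%), with overlapping ranges. Its log2 difference of -0.29 ± 0.14 did not pass (limma adjusted p = 0.125), but did with 75th percentile scaling (-0.43, adjusted p = 0.0374) or when arrays were weighted by quality (adjusted p = 0.0441).

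ALDH10A1 belongs to the aldehyde dehydrogenases that oxidize betaine aldehyde and aminoaldehydes. Its signals were 14585 and 14550 in whole seed, against 17096, 25607 and 37039 over the compartments (CV 14.3%). Whole seed was below every compartment array, with a log2 difference of -0.77 ± 0.17 (limma adjusted p = 0.00114). The highest compartment mean was 29995 ± 1601 in the axis epidermis and the lowest 19001 ± 2694 in the cotyledon vascular bundle (SD, n = 2 each).

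FAT1 releases fatty acids from acyl carrier protein in plastids, the step that ends chain growth. It had 7992 and 9260 in whole seed, against 5733, 10431 and 14285 over the compartments (CV 17.5%), and the log2 difference of -0.21 ± 0.15 did not pass (limma adjusted p = 0.341). Its lowest means were in the hilum, 6412 ± 962, and the palisade layer, 6738 ± 564, and its highest in the axis vascular bundle, 12955 ± 1880 (SD, n = 2 each). The arrays of these coat layers did not overlap those of the axis vascular bundle.

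RAR1-1 encodes a partner of the chaperone HSP90 that keeps immune receptors stable. It had 3297 and 4398 in whole seed, against 1869, 3172 and 4371 over the compartments (CV 16.4%), with a log2 difference of 0.35 ± 0.16 (limma adjusted p = 0.118). One whole seed array exceeded every compartment array and the other did not. The hourglass layer was lowest at 1988 ± 169 and the aleurone highest at 3811 ± 791 (SD, n = 2 each).

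PM37 belongs to the PM genes, named for soybean seed maturation proteins. It had 21867 and 26123 in whole seed, against 21826, 32003 and 43602 over the compartments (CV 17.7%). Its compartment means ran from 22597 ± 1090 in the hourglass layer to 42232 ± 463 in the axis epidermis, with the aleurone at 41937 ± 2354 (SD, n = 2 each). The arrays of the hourglass layer did not overlap those of the axis epidermis or aleurone. The log2 difference of whole seed was -0.43 ± 0.11 (limma adjusted p = 0.00626), and it turned to 0.29 (adjusted p = 0.108) with quantile normalization. It did not pass without whole seed replicate 1 (-0.30, adjusted p = 0.225), nor without the intensity trend, where the difference was the same -0.43 and the adjusted p was 0.0639.

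**Figure D2:**
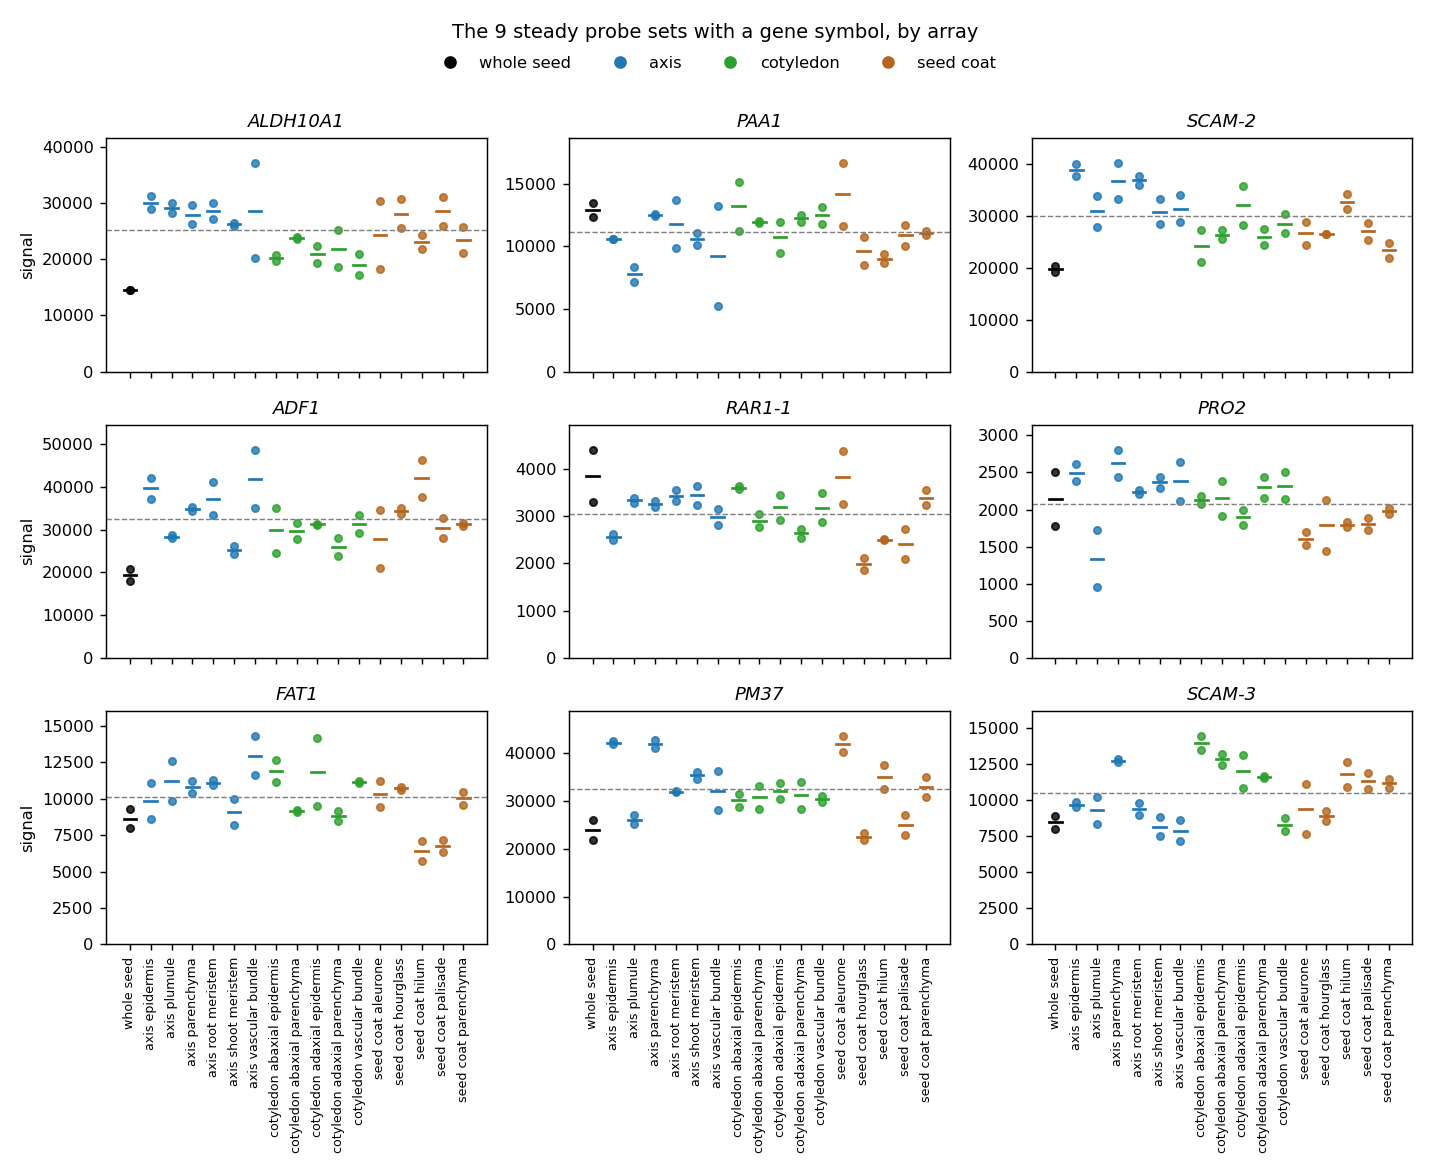
Signal on each array (points) and group mean (bars) for the 9 steady probe sets with a gene name, with whole seed at the left and the compartments coloured by region. The dashed line is the mean over the 32 compartment arrays, and every vertical axis starts at 0. Whole seed lies below all compartment arrays for ALDH10A1, SCAM-2 and ADF1, and inside their range for PAA1, PRO2, FAT1, PM37 and SCAM-3.

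Genes named like those of steady probe sets were not steady throughout. The PM genes were matched by symbol alone, so they need not be related to each other. Among the bright probe sets of PM genes, PM37 was the steady one, and the other 19 (14 genes) had a median CV of 96.5%, with a range of 26.6% to 229%. In 17 of these 19 the lowest mean was in a seed coat compartment, and in 13 both arrays of that compartment were below the background, the 95th percentile of each array's probe sets for other species. With signals below the background raised to it, the highest compartment mean was more than 20 times the lowest in 16 of the 19. PM1, for example, had 52034 in the shoot meristem and 46.7 in the hourglass layer, at least 310-fold higher in the meristem. The other 3 were PM41, with a bound of 19.0-fold, and the 2 bright probe sets of PM23, with CVs of 26.6% and 37.3%. The list of PM genes, and those of calmodulins and aldehyde dehydrogenases, were added after the values had been seen.

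ALDH10A2, of the same subfamily as ALDH10A1, had a mean of 10505 in the hourglass layer and 44.7 in the axis vascular bundle (CV 203%), at least 46.7-fold higher in the hourglass layer by the same bound. SCAM-1, another calmodulin gene, had 25433 in the root meristem and 2207 in the aleurone, an 11.5-fold ratio (CV 43.4%). The hourglass layer held neither the highest nor the lowest mean of ALDH10A1.

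**Figure D3:**
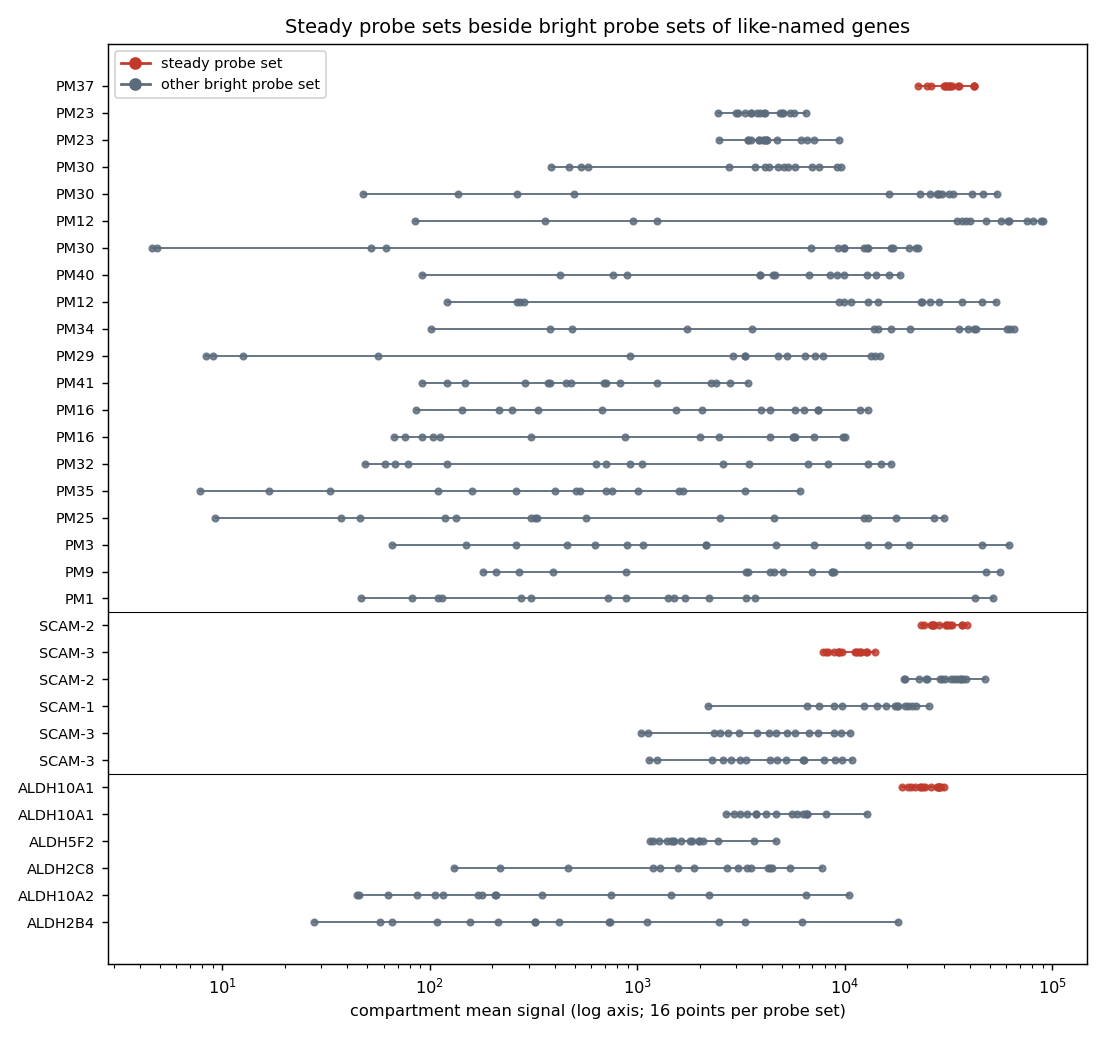
The 16 compartment means of each bright probe set of PM genes (top), calmodulin genes (middle) and aldehyde dehydrogenase genes (bottom), on a log axis of signal, 1 row per probe set. The steady probe sets span less than 1.9-fold, whereas 16 of the 19 other PM rows span more than 20-fold, with the signals below the background raised to it. The points show signals as deposited.

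Other probe sets of the same gene did not always share the low CV. For 18 of the 77 genes the array holds 24 further bright probe sets that were not among the 200. These had a median CV of 27.9% (20.3% to 117%), against 43.0% for all bright probe sets, and 16 of the 24 (66.7%) were below that value. ADF1 had others at 20.3% to 27.7% and SCAM-2 had 1 at 24.3%. A second ALDH10A1 probe set had 46.9%, with 12754 in the palisade layer and 2675 in the plumule, and its log2 difference in whole seed was 0.90 ± 0.22 (limma adjusted p = 0.00258), opposite in sign to that of the steady probe set. SCAM-3 had others at 59.4% and 60.0%, with 10602 in the cotyledon abaxial epidermis and 1042 in the axis parenchyma for the one at 59.4%. The steady probe sets of ALDH10A1 and SCAM-3 end in _s_at and those of SCAM-2 and ADF1 in _x_at, designs whose probes can match closely related copies, so these signals may sum several of them. Of the 77 genes, 3 were represented by a pair of steady probe sets: LOC100305830, LOC100811413 and LOC100782451.

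The classical reference genes were not among the 200. The list has 13 bright probe sets of 7 genes, and none was a member. With 200 members among 9488 bright probe sets, a list of this size would be likely to hold none, so nothing is read from this count. GAPC1, for glyceraldehyde-3-phosphate dehydrogenase of glycolysis, came nearest at rank 267 with a CV of 18.9%. GAPDH stood at 21.6%, 24.0% and 35.9%, SKIP16 at 28.1%, and the ubiquitin gene SUBI-1 at 30.1%, 30.3% and 36.5%. The cyclophilin CYP1 had 40.0%, the elongation factor gene TEFS1 38.5%, 41.6% and 56.7%, and the ubiquitin-conjugating enzyme UBC4 42.8%. Their highest compartment mean exceeded the lowest by 2.22 to 14.96 times, and 12 of the 13 lay below the median CV of all bright probe sets. The manufacturer's control for the 3' end of actin had a CV of 29.8%, with 26191 in the axis parenchyma and 4938 in the hourglass layer, and that of GAPDH 18.6%.

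Gene lists matched by symbol gave few steady probe sets. The ubiquitin and proteasome list had 1 of 7 bright probe sets among the 200 (PAA1) and the cytoskeleton list 1 of 7 (ADF1). The pattern of symbols behind the cytoskeleton list did not match PRO2, whose steady probe set and a further bright one are not in that count. Likewise the chaperone list did not match the co-chaperone gene RAR1-1, whose steady probe set is not counted there. No bright probe set was steady among 8 of cytosolic ribosomal proteins (median CV 34.2%), 10 of 14-3-3 proteins (36.4%), 10 of chaperones (39.5%), 7 of glycolysis and carbon metabolism (45.4%), 4 of translation factors (40.0%), 5 of small GTPases and vesicle traffic (38.6%), 3 of RNA binding and splicing (33.3%) and 12 of redox and metal homeostasis (55.9%). The 16 storage protein and inhibitor probe sets had a median CV of 147%, the 2 of seed coat MADS-box genes 179%, and the 2 of histones and HMG proteins 245%. Since 2.1% of all bright probe sets are steady by the rule, a share near that would leave few or none in lists of this size.

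Where the steady probe sets peaked differed from one to the next. The highest of the 16 compartments was the aleurone for 31, the shoot meristem for 20, the hilum for 18 and the root meristem for 16. The lowest was the hourglass layer for 38, the axis epidermis for 21 and the shoot meristem for 20. The shoot meristem thus held the maximum as often as the minimum. The median steady probe set stood at 93.1% of its own mean in the hourglass layer and at 106% in the root meristem, the outer values among the 16 compartments. The other bright probe sets had their outer values in the same compartments, at 76.0% in the hourglass layer and 98.3% in the root meristem. With the compartments of each region averaged, the axis was the highest region for 81 and the lowest for 57. The cotyledon was highest for 53 and lowest for 70, and the seed coat for 66 and 73. The median absolute log2 difference between the seed coat and the embryo was 0.11, with a maximum of 0.41, against 0.61 in the other bright probe sets.

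By limma on the compartment means, 0 of the 200 were called between seed coat and embryo (adjusted p under 0.05 and a log2 difference of at least 1), where 14.1% of the 28441 tested probe sets were called, and 12 of the 200 had an unadjusted and 2 an adjusted p under 0.05. By the limma F test among the 16 compartments 58 of the 200 (29%) passed at an adjusted p under 0.05, where 63.4% of all tested probe sets passed, and 6 of the 200 passed without the intensity trend. The rule chose on these means, so nothing is read from either count.

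The spread between the 2 replicates of a group did not enter the rule directly, which used group means. The replicate SD on the log2 scale had a median of 0.23 over the 200 (0.12 to 0.66), against 0.36 in the other bright probe sets and 0.55 in all tested. It was lower in every range of brightness, for example 0.30 against 0.42 at mean signals of 1000 to 2000 and 0.17 against 0.22 at 20000 to 40000. A mean of 2 noisy arrays varies more, so choosing steady means also favours probe sets with little replicate noise.

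Probe sets chosen on 1 replicate also had low CVs on the other. Both replicates entered the rule for the 200, so no compartment array is held out for them. The lists read here are other lists, of which 128 (chosen on replicate 1) and 120 (chosen on replicate 2) are among the 200. When the rule was applied to the 16 replicate 1 arrays alone, the 200 probe sets it chose had a median CV of 20.9% on the replicate 2 arrays (10.9% to 38.4%), against 46.9% in the 9230 other probe sets. All 200 were below that median, and 198 were in the lowest 25% and 173 in the lowest 10% of bright probe sets. Chosen on replicate 2 and read on replicate 1, the median was 21.4% (10.02% to 45.5%) against 46.9%, with 192 in the lowest 25% and 154 in the lowest 10%. The exact list was less repeatable, since 85 of each 200 were also among the 200 of the other replicate.

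**Figure D4:**
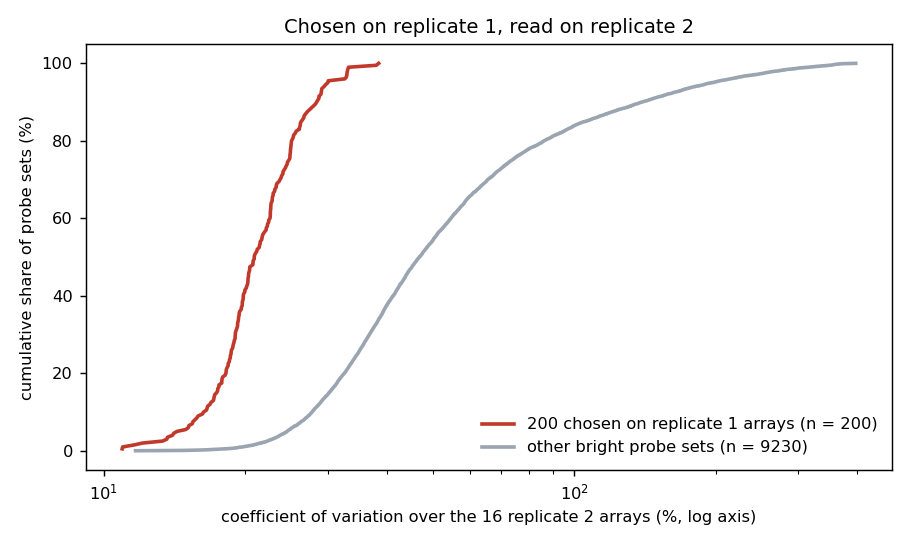
Cumulative share of probe sets, in percent, against the CV over the 16 replicate 2 arrays on a log axis, for the 200 probe sets chosen on the replicate 1 arrays and for the 9230 other bright probe sets. The chosen probe sets lie between 10.9% and 38.4%, and the median of the others is 46.9%.

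Whole seed was not used by the rule, but the compartment means it was compared with were. It is a mixture of these tissues, so probe sets alike in all compartments are favoured to lie near their mean. A lower share called is thus partly set by the rule and is a description. The contrast called 8 of the 200 (4%) at an adjusted p under 0.05 and a log2 difference of at least 1. Of all 28441 tested probe sets 19.3% were called, and of the other bright ones 26.9%. Of the 8, 1 was higher in whole seed (12% of all tested were called higher) and 7 were lower (7.38% of all tested were called lower). The count was 20 without whole seed replicate 1, 4 without whole seed replicate 2, and 15, all lower, with 75th percentile scaling. Without 1 of its arrays, whole seed is a single sample that is assumed to vary like the other groups, here and in the values of single genes. With adjusted p under 0.05 alone, 76 passed (38%), against 26.5% of all tested and 44.9% of the other bright probe sets. Of these 76, 4 were higher (14.6% of all tested) and 72 were lower in whole seed (36% of the 200, against 11.9% of all tested and 22.5% of the other bright probe sets). The 95% confidence interval of the difference lay within 1 log2 unit of 0 for 141 of the 200 (70.5%), against 21.4% of all tested and 39.8% of the other bright probe sets. The width of that interval comes from the replicate SD, which the rule favours to be low, so this share is a description.

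The called probe sets were led by GmaAffx.62063.1.S1_at, which has no gene in the table. It had 2803 and 1670 in whole seed, against 3994, 6267 and 8239 over the compartments, and the log2 difference was -1.51 ± 0.18 (limma adjusted p = 6.63e-07). LOC100795070 had 997.6 and 969.3 in whole seed, against 1122, 2475 and 3410 over the compartments (-1.30 ± 0.18, adjusted p = 8.25e-06 by limma). Whole seed lay below every compartment array for both. LOC100500620 had 6152 and 6606 in whole seed, against 8028, 14414 and 22412 (-1.13 ± 0.22, adjusted p = 0.000438 by limma). LOC100782451 had 17598 and 6516 in whole seed, against 18038, 21264 and 33147 over the compartments (-1.06 ± 0.18, limma adjusted p = 9.63e-05), and its whole seed arrays were far apart. These are values of GmaAffx.90190.1.S1_s_at. The other steady probe set of that locus, Gma.2107.1.S1_s_at, had 13445 and 5463 in whole seed and was not called (-0.86 ± 0.18, limma adjusted p = 0.000697). Gma.4035.1.S1_at was the one that was higher, with 3326 and 3184 in whole seed against 919.4, 1592 and 2209 (1.09 ± 0.22, limma adjusted p = 0.000438), above every compartment array. Both whole seed arrays were outside the range of the compartments for 7 of the 8, the exception being Gma.3530.2.S1_at with 2325 and 894.7 in whole seed against 1879 to 4456 over the compartments.

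The median log2 difference of the steady probe sets between whole seed and the compartments was -0.31 (-1.51 to 1.09). It was 0.00 in the other bright probe sets and 0.01 in all tested. Of the 200, 150 were lower, against 49.9% of the other bright probe sets. A mean of log2 compartment signals lies below the log2 of their mean signal, and further below where they vary more. The other bright probe sets vary more by the rule, which raises their differences, so the gap between the sets is partly set by the rule. The size of that part was not tested. Per array, the median of the 200 relative to their own means was -0.28 and -0.31 on the whole seed arrays, and -0.08 to 0.11 on the 32 compartment arrays. The size of the difference, regardless of sign, had a median of 0.41 in the steady and 0.61 in the other bright probe sets. Both whole seed arrays lay below all 32 compartment arrays for 40 of the 200 (20%), against 4.92% of the other bright probe sets, which have wider ranges by the rule. The brightest pair, Gma.10761.1.S1_at and Gma.10761.1.S1_x_at, which share a cluster and have no gene in the table, differed by -0.61 ± 0.13 and -0.60 ± 0.14.

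The difference depended on brightness in both sets. At mean signals of 1000 to 2000 its median was -0.22 in the steady and 0.09 in the other bright probe sets, and at 20000 to 40000 it was -0.65 and -0.59. With quantile normalization these medians were -0.32 and -0.003 at 1000 to 2000 and -0.24 and -0.17 at 20000 to 40000, so among the ranges up to 40000 the gap between the sets was narrowest in the brightest, under both. Over all 200 the median was -0.22 with quantile normalization and -0.44 with 75th percentile scaling, which moved the median of all tested probe sets by -0.13. In a bulk sample, fewer cells of a type and less RNA per cell cannot be told apart. The whole seed group also differed in how its RNA was made. Its hybridization controls were at 0.358 and 0.318 times the median array, against 0.574 to 3.13 in the compartments, and the ratio of the 3' to the middle GAPDH control was 23.2 and 15.7, against 64.2 to 763. The part of these in the result was not tested.

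**Figure D5:**
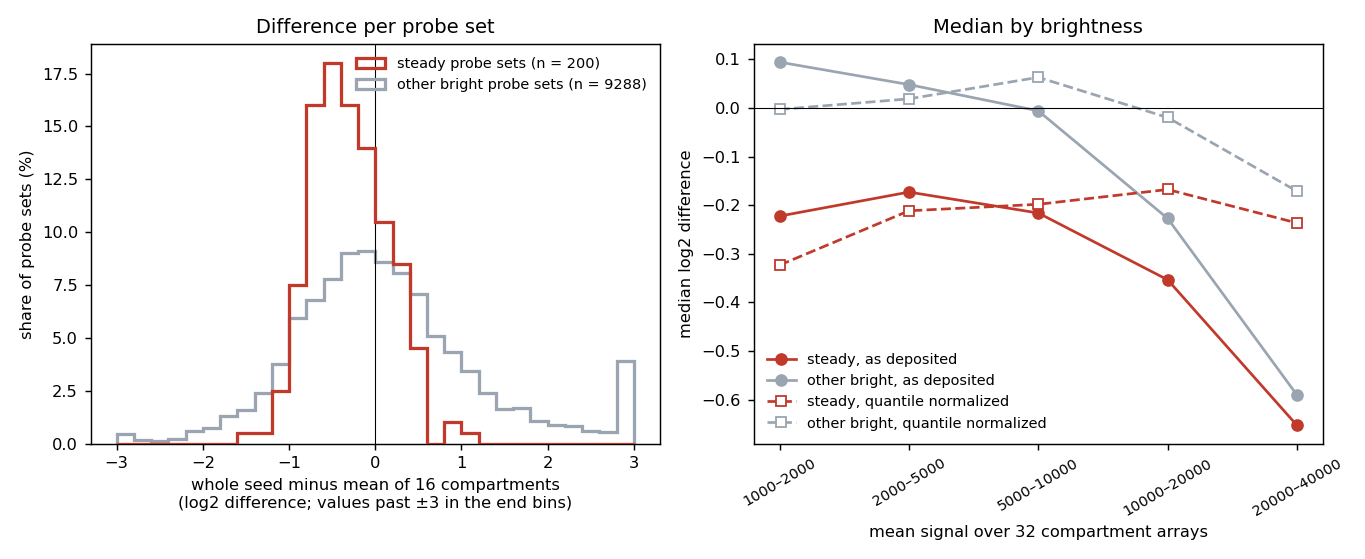
Left, the share of probe sets in percent by log2 difference, whole seed minus the mean of the 16 compartments, for the 200 steady and 9288 other bright probe sets. Right, the median difference by mean signal, as deposited (solid lines) and after quantile normalization (dashed lines): the steady probe sets lie below the others in each range shown, with -0.22 against 0.09 at 1000 to 2000 and -0.65 against -0.59 at 20000 to 40000 as deposited.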

How the data were processed

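The authors deposited 1 linear intensity per probe set and array, computed with GCOS 1.3 per the submitters' processing notes. The settings of that program are not stated there. A trimmed mean, leaving out 2% at each end, was 500.1 on all 34 arrays, so arrays had been scaled. Depth does not apply to arrays, and their number limits the precision. No further normalization was applied for the main values. Tests used log2(signal + 16) and limma 3.58.1 in R 4.3.3 (eBayes with an intensity trend, 1 fit of 17 groups, Benjamini-Hochberg over all tested), with data.table version 1.17.8, and figures were drawn with matplotlib 3.10.9 and pandas 2.3.3 under Python 3.11.15. The 28441 soybean probe sets tested exceeded, on at least 2 arrays, the value below which 95% of the array's Phytophthora sojae and Heterodera glycines probe sets lay, as did all 200 steady ones. A log2 difference with this pseudocount understates changes of dim probe sets.

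The rule, the gene lists (16, with 3 added after the values were seen) and the tests were chosen with earlier results of these data known. The symbol list holds symbols and no products, so lists matched symbols. Named are the 9 members with a gene name, the members called in whole seed, reference genes, list members and the probe sets at the limit; a few probe sets without a name and further probe sets of the named genes were chosen after their values were seen. Same-numbered replicates were treated as unpaired in the main fit. The deviations of same-numbered arrays correlated at -0.09 to 0.15 over 136 pairs of groups, with a median of 0.02. Such deviations also hold the noise of each array, so they cannot show whether compartments shared seeds. The alternatives tried were other scalings, pseudocounts, filters, brightness minimums, measures of steadiness, and leaving out each array or compartment. The fit was tested on simulated data with independent noise and planted differences larger than the minimum for a call, so smaller differences were not covered. Promoter motifs were not analysed here.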

Additional observations from a re-analysis of the deposited data

How the results depend on the processing

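With 2 arrays per group, single-compartment values are loosely fixed, and dim signals near the background could not enter the 200. Of the 200 probe sets, 126 were kept with quantile normalization and 68 with the 11 embryo compartments alone, 143 to 185 when 1 compartment was left out (lowest without the aleurone), and 166 to 192 when 1 array was left out; 73 were kept in all 32 of those. The counts kept with the other settings were 149 (CV over 32 arrays), 155 (minimum 2000), 159 (_at only), 166 (75th percentile), 171 (minimum 500) and 177 (SD of log2 means). The 8 calls in whole seed became 15, all lower, with 75th percentile scaling, 12 with quantile normalization, 76 with no minimum size, 20 without whole seed replicate 1 and 4 without whole seed replicate 2, the range over all arrays left out. The median difference of -0.31 was -0.22 with quantile normalization, -0.24 when the 200 were also chosen again on the normalized signals (added after seeing the data), -0.44 with 75th percentile scaling and -0.32 to -0.28 when 1 array was left out. The 58 that passed the F test became 6 without the intensity trend, and 46 to 76 when 1 array was left out. The median CV on the replicate not used to choose was 21.5% with a minimum of 500 and 18.0% or 17.5% with quantile normalization. PM37 turned to 0.29 with quantile normalization. With the replicate block, 8 were called in whole seed and 60 passed the F test, and it changed no call of a named gene. The causes were not tested. The motif comparison was not run, because no promoter sequences were at hand. The other settings left these results on the same side of their thresholds, apart from the named genes given beside their values.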
